A study of Mus musculus with 12 samples.

Results

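AP-1 is a transcription factor made of pairs of Fos and Jun proteins, and the 7 mouse genes of both families were examined here: Fos, Fosb, Fosl1, Fosl2, Jun, Junb and Jund. They were taken by symbol from a table of 23893 genes. The libraries came from cultured cortical neurons of C57BL6 mouse embryos at days 13.5 to 15.5. Neurons were infected at day in vitro (DIV) 3 with a lentivirus in which the neuron-specific CaMKIIα promoter drove tdTomato alone (the WT groups) or tdTomato with CRE recombinase (the Top1 cKO groups). The study's methods give all these neurons as Top1 fl/fl, with loxP sites around exon 3 of Top1, whereas the labels call the control genotype wild-type and the dams wild-type. From DIV 15, each genotype received vehicle (0.003% DMSO, Veh) or 300 nM topotecan in the same vehicle (Topot) for 3 days. This gave 4 groups of 3 libraries, named WT-Veh, Top1 cKO-Veh, WT-Topot and Top1 cKO-Topot. About 85 to 90% of cells were transduced according to the labels, so uninfected neurons and other cell types in the Top1 cKO cultures still carried Top1. Topotecan is a drug that traps topoisomerase 1 (TOP1), an enzyme that relaxes supercoiled DNA, on the DNA it has cut. Nothing in the labels says whether the 3 libraries of a group came from separate litters or culture days, so p-values measure the spread between these libraries.

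Fos proteins cannot pair with each other and need a Jun partner, whereas Jun proteins can also pair among themselves, and all use a leucine zipper to pair and a basic region to bind DNA. In neurons, Fos, Fosb and Junb are immediate early genes, switched on within minutes by synaptic activity through calcium and kinase signals that act on CREB and SRF at their promoters, and their short-lived mRNA falls again when the signal stops. Fosl1 (Fra-1) and Fosl2 (Fra-2) encode Fos relatives that lack a strong activation domain. Jun encodes the partner that the JNK kinases phosphorylate under stress, Junb is often a weaker activator than Jun, and Jund is the Jun family member with the steadiest expression in resting cells.

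The promoters are shown for Fos, Fosb and Junb, 3 of the 4 members that fell with topotecan in WT neurons, and for Jun, which did not fall. The other member that fell, Fosl2, is not shown. Sequences of 6 members were found in RefSeq (GRCm38.p6). Each of them matched the NCBIM37 genome, the assembly that mm9 names, exactly once. Each line gives the 250 bases before the RefSeq start site, 5′ to 3′ on the gene's strand, with capitals for the TGACG core of the cAMP response element (CRE), for TGACATCA, the variant AP-1/ATF site known from the Jun promoter, and for TATAA.
Fos (chr12:86814590-86814839, + strand): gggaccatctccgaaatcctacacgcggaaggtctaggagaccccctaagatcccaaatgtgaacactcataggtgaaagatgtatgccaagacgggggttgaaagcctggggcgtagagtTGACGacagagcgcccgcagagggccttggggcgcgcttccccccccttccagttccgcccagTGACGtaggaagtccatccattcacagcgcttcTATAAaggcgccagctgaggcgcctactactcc
Fosb (chr7:19895395-19895644, - strand): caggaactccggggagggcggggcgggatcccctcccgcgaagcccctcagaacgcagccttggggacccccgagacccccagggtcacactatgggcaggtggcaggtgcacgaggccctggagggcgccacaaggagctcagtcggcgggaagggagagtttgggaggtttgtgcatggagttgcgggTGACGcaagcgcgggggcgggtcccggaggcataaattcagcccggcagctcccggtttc
Junb (chr8:87502648-87502897, - strand): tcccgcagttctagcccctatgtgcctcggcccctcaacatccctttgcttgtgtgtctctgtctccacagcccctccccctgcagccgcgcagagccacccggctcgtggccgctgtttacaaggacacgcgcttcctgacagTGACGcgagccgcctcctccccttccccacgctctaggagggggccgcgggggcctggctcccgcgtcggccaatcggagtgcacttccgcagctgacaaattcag
Jun (chr4:94718914-94719163, - strand): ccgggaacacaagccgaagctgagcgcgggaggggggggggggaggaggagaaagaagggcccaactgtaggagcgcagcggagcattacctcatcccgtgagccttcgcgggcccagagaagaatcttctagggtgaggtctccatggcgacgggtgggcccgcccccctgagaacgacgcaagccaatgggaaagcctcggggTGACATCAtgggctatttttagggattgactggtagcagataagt
TGACG lay at −129 to −125 and −66 to −62 in Fos, at −60 to −56 in Fosb and at −106 to −102 in Junb, counted back from the start site. Searched on both strands, it was found in 3 of 6 members and in 17.8% of all 32851 promoters of the same length. TGACATCA was found in Jun alone, at −45 to −38, and in 2.93% of all promoters. TATAA, searched on the gene's strand, lay at −33 to −29 in Fos and in 5255 of the 32851 promoters. The full CRE TGACGTCA, which contains TGACG, was in 1.55% of promoters. The AP-1 site TGACTCA was in 4.46% and the CArG box that SRF binds in 1.47%. None of the 6 members held any of these within the window, and sites further upstream were not searched. Fosl2, which also fell in WT-Topot, and Jund held none of the motifs in this window.

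In NCBIM37 the genes were short. Fos spanned 3.38 kb (chr12:86814840-86818223, + strand, 4 exons), Fosb 7.33 kb (chr7:19888070-19895394, - strand, 4 exons), Fosl1 8.24 kb (chr19:5447703-5455945, + strand, 4 exons) and Fosl2 21.4 kb (chr5:32438845-32460204, + strand, 4 exons). The Jun family genes each had 1 exon, with Jun at 3.19 kb (chr4:94715725-94718913, - strand), Junb at 1.81 kb (chr8:87500811-87502617, - strand) and Jund at 2.88 kb (chr8:73221638-73224515, + strand). Whether reads were counted by strand is not given in the sources used here. This matters for Fosl1, since 68.1% of its exon bases lie under Ccdc85b on the opposite strand, which stood at 68.2 to 150.3 CPM (counts scaled to library size), so reads of this pair cannot be told apart. Jund shared 18.9% of its exon bases with Gm11175 and Jun 7.28% with BC042782, both on the opposite strand and without a row in the table.

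Each library held 1730164 to 4583777 counts, so 3 counts corresponded to 0.687 to 1.73 CPM. Top1, the deleted gene, stood at 117 to 163 CPM with vehicle and 129 to 140 CPM with topotecan in WT neurons, against 27.1 to 44.0 CPM and 28.4 to 37.5 CPM in Top1 cKO neurons, as the labels say. All 6 neuron markers were present, at a summed 4838 to 6517 CPM per library. The summed level of 6 astrocyte markers was 1265 to 3275 CPM with vehicle and 617 to 1297 CPM with topotecan in WT neurons, and 1300 to 3681 CPM and 623 to 1718 CPM in Top1 cKO neurons. Its median over the libraries was lower with topotecan in both genotypes, with overlapping ranges. Microglial markers summed to at most 13.5 CPM in any library, with 2 of 6 at no more than 3 counts throughout. All fold changes below come from edgeR's quasi-likelihood test over all genes, given as log2 values with their standard error (SE), and an adjusted p is Benjamini-Hochberg adjusted over 23893 genes, with 0.01 as the threshold for a call. Calls come from edgeR fits without the replicate number as a block, unless the block or another program is named. The 95% intervals are normal approximations from the SE, so they are somewhat narrower than the test behind the p-value would give. Comparisons that share a group of libraries are not independent of each other.

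Levels between members can be compared only per length, as CPM per kb of exon. On that scale Jund was highest in WT-Veh at 70.5 ± 16.8 (SD, n = 3), followed by Fosl2 at 44.6, Fos at 37.9, Junb at 36.7, Jun at 24.8, Fosb at 8.35 and Fosl1 at 4.29. In CPM over all libraries, Fosl2 and Jund reached 98.5 to 296 CPM, Fos, Jun and Junb 7.28 to 167 CPM, and Fosb and Fosl1 were the least abundant, with 5 to 139 and 12 to 41 counts per library.

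Topotecan in WT neurons addresses whether TOP1 inhibition changes these genes. In WT-Topot, 4 of the 7 members fell and none rose at the threshold, where 2.04% of all genes were called lower and 0.682% higher. Fos, Fosb and Fosl2 of the Fos family and Junb of the Jun family were the 4 that fell. Among genes of at least 1 CPM and at most 100 kb, the length class of all 7 members, 1.10% were called lower. Among those over 100 kb, 18.04% were called lower. The median log2 fold change of the members was −1.21, beside 0.03 over all genes of at least 1 CPM. The libraries of the groups did not overlap for the same 4 members, and for Jun in the opposite direction, where 13.2% of genes of at least 1 CPM were fully lower and 12.9% fully higher.

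Fos, the founding member and the usual marker of recent neuronal activity, stood at 92.7, 111 and 35.7 CPM in WT-Veh replicates 1, 2 and 3 and at 13.4, 12.02 and 7.28 CPM in WT-Topot. Every WT-Topot library lay below every WT-Veh library, although WT-Veh replicate 3 was far below the other two. The log2 fold change was −2.86 (SE 0.34, adjusted p = 1.93e-05), a 7.24-fold lower level. In Top1 cKO-Veh the values were 75.9, 86.6 and 32.1 CPM, and in Top1 cKO-Topot 86.0, 53.1 and 64.7 CPM. All 3 groups other than WT-Topot overlapped, so that WT-Veh (79.9 ± 39.4 CPM, SD, n = 3), Top1 cKO-Topot (68.0 ± 16.7) and Top1 cKO-Veh (64.8 ± 28.9) differed by less than their spread, and only WT-Topot (10.9 ± 3.21) stood apart. In bulk RNA, fewer cells that express a gene and less of its RNA per cell cannot be told apart.

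Fosb, which also encodes the truncated and long-lived ΔFosB, had the lowest counts of the members that fell. It stood at 38.6, 42.1 and 13.2 CPM in WT-Veh and at 2.35, 4.58 and 3.85 CPM in WT-Topot, with no overlap. Its log2 fold change was −3.12 (SE 0.42, adjusted p = 6.24e-05), or 8.67-fold lower. Top1 cKO-Veh ranged widely, with 54.4, 19.2 and 2.51 CPM, and replicate 3 fell within the range of WT-Topot. Top1 cKO-Topot stood at 28.7, 8.97 and 9.62 CPM. The order of the means was WT-Veh (31.3 ± 15.7 CPM, SD, n = 3), Top1 cKO-Veh (25.4 ± 26.5), Top1 cKO-Topot (15.8 ± 11.2) and WT-Topot (3.59 ± 1.14), with neighbours among the first 3 differing by less than the SD of either.

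Fosl2 had the highest CPM of the Fos family. It stood at 289.9, 255.1 and 238.4 CPM in WT-Veh and 133, 106 and 98.5 CPM in WT-Topot, again with no overlap. The log2 fold change was −1.21 (SE 0.18, adjusted p = 2.56e-04), a 2.31-fold lower level. The Top1 cKO-Veh libraries had 249.9, 171 and 102 CPM and the Top1 cKO-Topot libraries 262, 167 and 181 CPM, both overlapping WT-Veh. Fosl1, by contrast, was at 5.85, 9.20 and 6.91 CPM in WT-Veh and 5.36, 4.29 and 6.85 CPM in WT-Topot, which overlapped (log2 fold change −0.41, 95% interval −1.21 to 0.39, adjusted p = 0.880). It was at 5.47, 9.39 and 6.01 CPM in Top1 cKO-Veh and 13.9, 9.30 and 6.56 CPM in Top1 cKO-Topot, and no comparison called it. At these counts the interval of Fosl1 in WT-Topot still held a 2-fold fall, so a change of that size was not detectable.

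**Figure D1:**
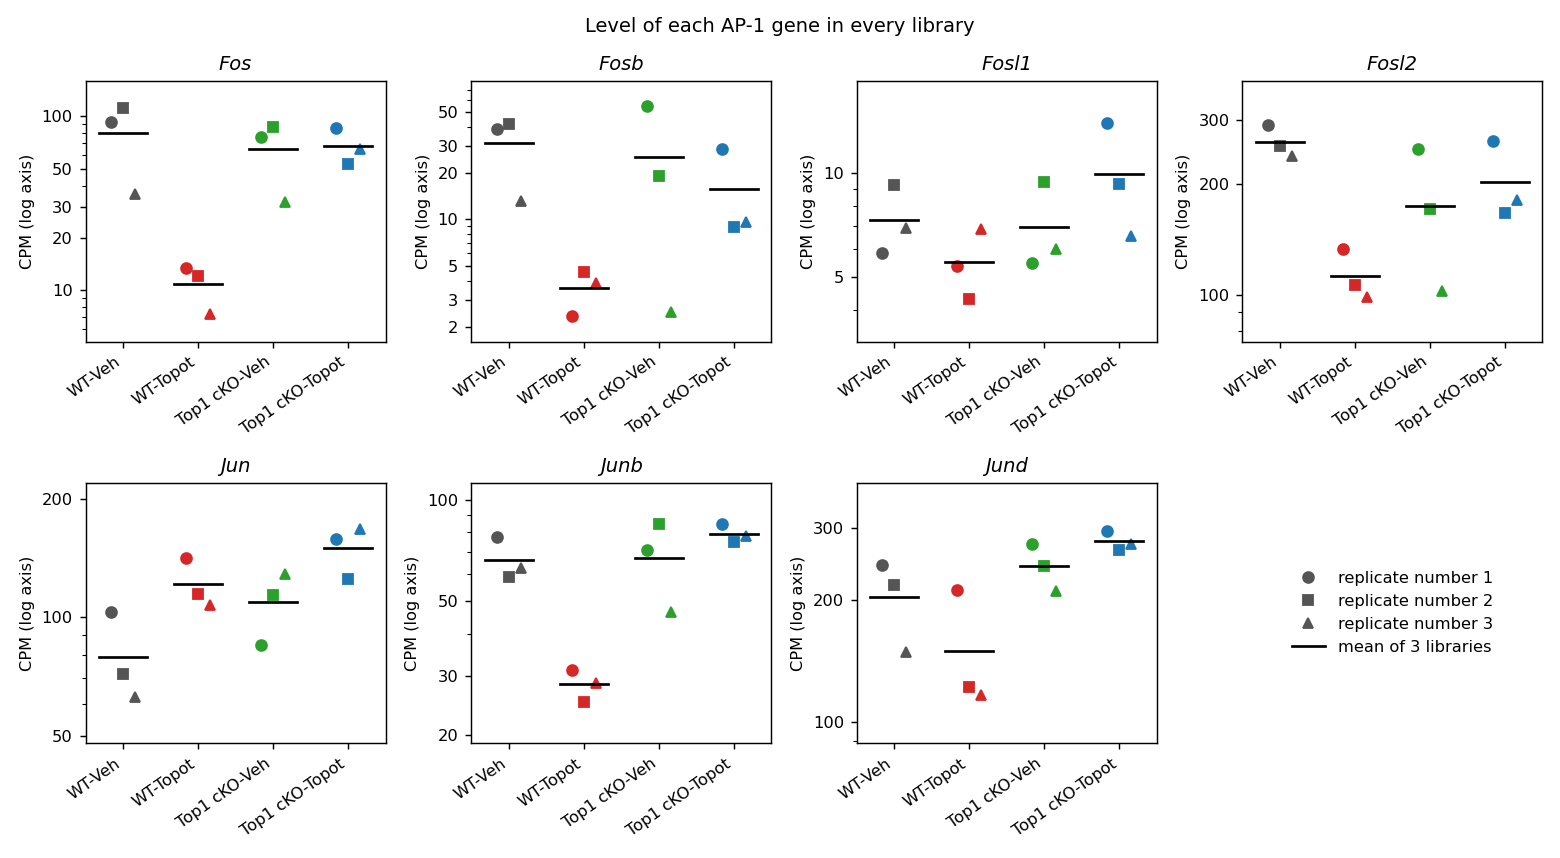
Level of each AP-1 gene in CPM (log axis) in the 12 libraries, by group, with the marker shape giving the replicate number and the bar the mean of 3 libraries. For Fos, Fosb, Fosl2 and Junb all 3 WT-Topot libraries lie below all 3 WT-Veh libraries, and for Jun they lie above.

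Junb was the Jun family member that fell. Its values were 77.2, 59.2 and 62.8 CPM in WT-Veh and 31.2, 25.2 and 28.7 CPM in WT-Topot. The highest WT-Topot library thus lay well below the lowest WT-Veh library, and the log2 fold change was −1.23 (SE 0.22, adjusted p = 0.00117), or 2.34-fold lower. In Top1 cKO-Veh it stood at 70.8, 84.5 and 46.6 CPM and in Top1 cKO-Topot at 84.4, 75.1 and 77.8 CPM. The means of Top1 cKO-Topot (79.1 ± 4.83 CPM, SD, n = 3), Top1 cKO-Veh (67.3 ± 19.2) and WT-Veh (66.4 ± 9.56) differed by less than the larger SD of each neighbouring pair.

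Jun, the main partner of Fos, moved the other way. It stood at 103, 71.9 and 62.8 CPM in WT-Veh and at 141, 115 and 107 CPM in WT-Topot, so that the lowest WT-Topot library lay just above the highest WT-Veh library. The log2 fold change was 0.61 (SE 0.21), and the adjusted p was 0.127 without and 5.79e-04 with the replicate number as a block. Jun was at 84.9, 114 and 129 CPM in Top1 cKO-Veh and 158, 125 and 167 CPM in Top1 cKO-Topot. The order of its means was Top1 cKO-Topot (150.1 ± 22.4 CPM, SD, n = 3), WT-Topot (121 ± 17.9), Top1 cKO-Veh (109 ± 22.3) and WT-Veh (79.2 ± 21.1), and WT-Topot and Top1 cKO-Veh overlapped.

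Jund stood at 243, 217 and 149 CPM in WT-Veh and 211, 122 and 116 CPM in WT-Topot, which overlapped. Its log2 fold change was −0.43 (SE 0.23), with an adjusted p of 0.485 without and 0.00969 with the block. With the block, 5 members thus passed as lower and 1 as higher in WT-Topot, where the block called 5% of all genes lower and 3.24% higher. Jund was at 275, 242 and 210 CPM in Top1 cKO-Veh and at 296, 265 and 274 CPM in Top1 cKO-Topot, and its highest mean was in Top1 cKO-Topot (278 ± 15.7 CPM, SD, n = 3).

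The astrocyte markers moved with the fall in WT-Topot, with 2 of 6 called lower and a median log2 fold change of −1.53, and so did 4 interneuron markers, with a median of −1.02 and a summed level of 486 to 886 CPM against 748 to 1658 CPM in WT-Veh. None of the interneuron markers was called without and 3 were called lower with the block, which called 4 of the astrocyte markers lower. Of the 6 neuron markers, Rbfox3 (NeuN) was lower in WT-Topot (−0.96, SE 0.18, adjusted p = 0.00209), and the block called 3 of them lower and 2 higher. In Top1 cKO neurons topotecan gave astrocyte markers a median of −1.27, with 6 of 6 negative and none called without but 4 lower with the block. Of the 7 members, 6 had positive values there (median 0.23), and none was called without the block. The part of these cell types in the fall of the members in WT-Topot was not tested.

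Deletion of Top1 without the drug gave no call for any member by edgeR without the block. There 0.126% of all genes were called lower and 0.046% higher. DESeq2 also called 0 members, and at an unadjusted p under 0.05 there was 1, Fosl2. The median log2 fold change of the members was −0.03, beside −0.01 over genes of at least 1 CPM. Fos changed by −0.30 (95% interval −1.01 to 0.41), Fosb by −0.31 (−1.47 to 0.86) and Junb by 0.03 (−0.43 to 0.48). Fosl2 had the largest difference, −0.58 (SE 0.25), with an adjusted p of 0.492 without and 7.55e-06 with the block. It was lower in Top1 cKO-Veh at each replicate number, by 0.21, 0.58 and 1.22 on the log2 scale. The block called 2.95% of genes lower and 2.6% higher here. The libraries of the groups overlapped for all 7 members, where 10.3% of genes of at least 1 CPM were fully lower and 9.58% fully higher. Without Top1 cKO-Veh replicate 3 the difference of Fosl2 was −0.31. Jun (0.45, SE 0.23, adjusted p = 0.620) and Jund (0.25, SE 0.20, adjusted p = 0.935) had positive values.

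Topotecan in Top1 cKO neurons asks what the drug does where its target is reduced. No member was called here either, by edgeR without the block or by DESeq2. Only 0.00837% of all genes were called lower and 0 higher by edgeR. Fos had a log2 fold change of 0.06 (SE 0.29, 95% interval −0.51 to 0.63), Fosl2 0.23 (SE 0.26, −0.27 to 0.73) and Junb 0.23 (SE 0.22, −0.19 to 0.66). The lower bounds of these 3 intervals all lay above the values the same genes had in WT neurons, which carry an error of their own. This is no test of a difference, which the interaction below gives. The libraries overlapped for all 7 members, where 6.54% of genes of at least 1 CPM were fully lower and 5.2% fully higher. For Fosb the interval was wide, −1.92 to 0.54, and its value reversed to 0.42 without Top1 cKO-Veh replicate 1. Jun was the 1 member with an unadjusted p under 0.05. Its log2 fold change of 0.47 (SE 0.19) had an adjusted p of 1 without and 0.00291 with the block, which called 0.858% of genes higher and 1.74% lower, and Jun was higher with topotecan at each of the 3 replicate numbers, by 0.90, 0.14 and 0.38.

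**Figure D2:**
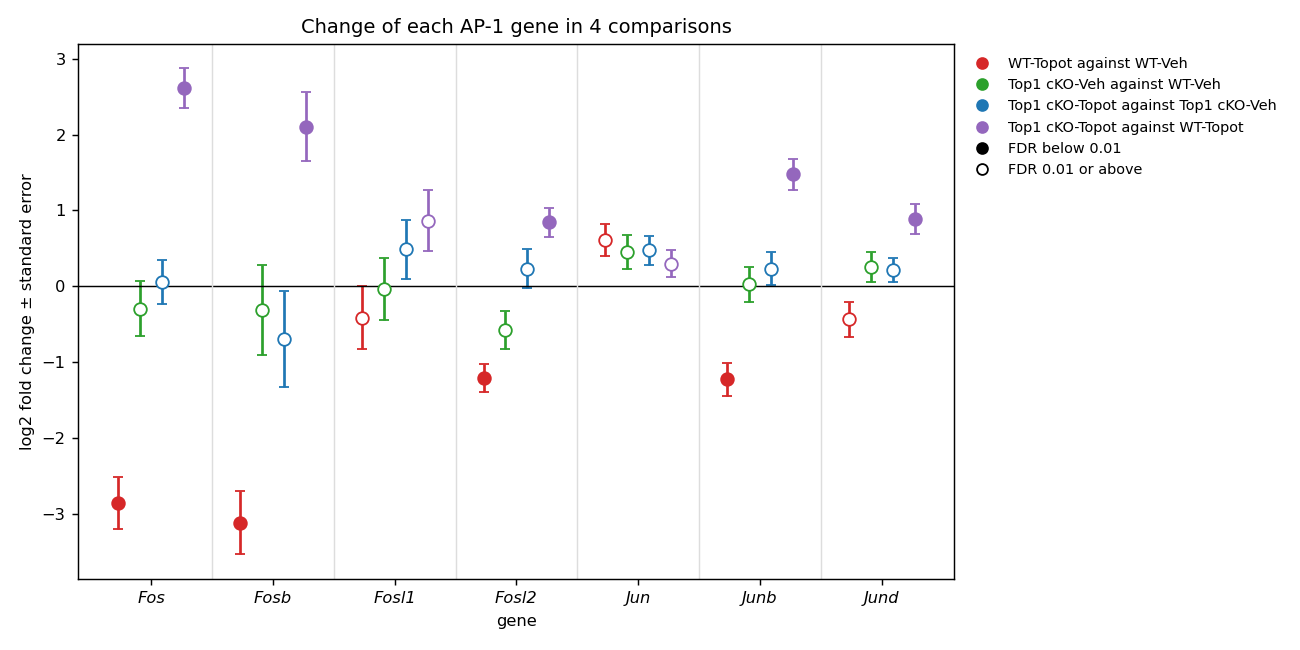
Log2 fold change of each AP-1 gene with its standard error in 4 comparisons from edgeR, with filled points below and open points at or above an FDR of 0.01. Fos, Fosb, Fosl2 and Junb have filled negative points for WT-Topot against WT-Veh (−3.12 to −1.21) and filled positive points for Top1 cKO-Topot against WT-Topot (0.85 to 2.61), whereas all points of the other comparisons are open.

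The difference between the genotypes in their response to topotecan was tested directly as an interaction on all 12 libraries. Fos alone passed without the block, where 0.398% of all genes were called higher and 0.0377% lower. Its interaction was 2.91 on the log2 scale (SE 0.52, adjusted p = 0.00588), meaning that the response was more positive in Top1 cKO neurons by that amount, and it lost the call without WT-Veh replicate 2, WT-Topot replicate 3 or Top1 cKO-Topot replicate 1 (largest adjusted p 0.0160) and in the fit of genes kept by filterByExpr (0.0161). Within replicate numbers 1, 2 and 3 the log2 ratio of Fos with topotecan was −2.79, −3.21 and −2.29 in WT neurons and 0.18, −0.70 and 1.01 in Top1 cKO neurons. The gap between genotypes at each number was 2.97, 2.51 and 3.31, so it was positive at all 3.

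A further 4 members had positive interactions that missed the threshold without and passed with the block, which called 2.44% of genes higher and 1.53% lower. Junb had 1.45 (SE 0.30, adjusted p = 0.0151 without and 1.72e-05 with the block), and its ratios were −1.31, −1.23 and −1.13 in WT neurons against 0.25, −0.17 and 0.74 in Top1 cKO neurons. Fosl2 had 1.43 (SE 0.34, adjusted p = 0.0417 and 1.11e-07), Fosb 2.42 (SE 0.93, adjusted p = 0.367 and 7.41e-04) and Jund 0.64 (SE 0.30, adjusted p = 0.590 and 0.00902). For Jun the interaction was −0.14 (95% interval −0.72 to 0.43, adjusted p = 1), and its ratios were positive at every number in both genotypes, 0.46, 0.68 and 0.78 in WT and 0.90, 0.14 and 0.38 in Top1 cKO neurons. A difference between genotypes in the response of Jun was thus not detectable, and values within that interval remain possible.

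**Figure D3:**
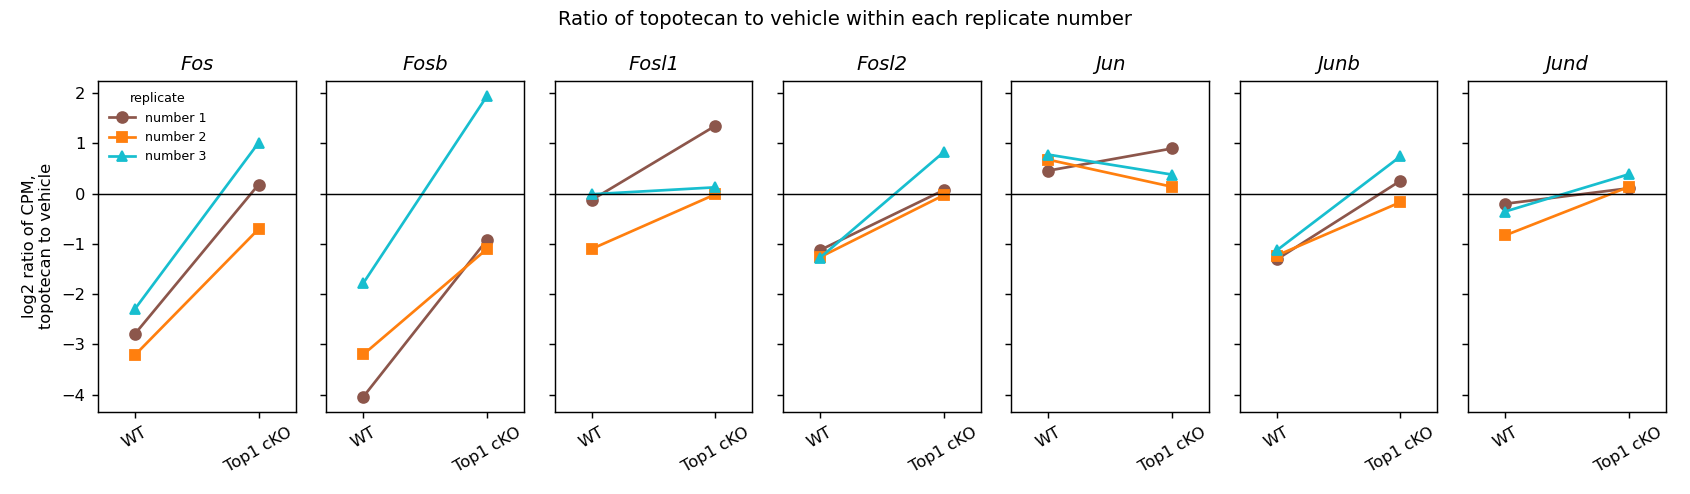
Log2 ratio of CPM with topotecan to CPM with vehicle at each replicate number, in WT and in Top1 cKO neurons, for the 7 AP-1 genes. The lines of Fos, Fosb, Fosl2, Junb and Jund run upward from WT to Top1 cKO at all 3 numbers (for Fos from −2.79, −3.21 and −2.29 to 0.18, −0.70 and 1.01), as do those of Fosl1 (by 1.47, 1.09 and 0.14), which no comparison called, whereas Jun lies above 0 in both genotypes.

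The treated groups were also compared with each other. In Top1 cKO-Topot against WT-Topot, 5 of 7 members were higher and none lower, where 1.46% of all genes were called higher and 1.03% lower. Fos was higher by 2.61 (SE 0.26, adjusted p = 1.03e-06), Fosb by 2.10 (SE 0.45, 0.00548), Junb by 1.48 (SE 0.21, 6.27e-05), Jund by 0.89 (SE 0.20, 0.00692) and Fosl2 by 0.85 (SE 0.19, 0.00796) on the log2 scale. The libraries did not overlap for these 5, where 13.4% of genes of at least 1 CPM were fully higher and 14.2% fully lower. The same 5 passed with the block, which called 4.6% of genes higher and 4.08% lower. Fos and Junb held in each of 12 alternatives. The other 3 did not, and the count was 2 members both with the filterByExpr genes and in 1 fit on all 12 libraries. Without Top1 cKO-Topot replicate 1 the adjusted p of Fosl2 was 0.0785 and that of Fosb 0.0953, and without WT-Topot replicate 3 that of Fosl2 was 0.0197 and that of Jund 0.0214. Jund also missed the threshold without WT-Topot replicate 2 (0.0125) or Top1 cKO-Topot replicate 2 (0.0210). Jun differed by 0.30 (95% interval −0.05 to 0.65, adjusted p = 0.540). Neuron markers moved here as well, with Rbfox3 (0.99, SE 0.17, adjusted p = 7.10e-04) and Snap25 (1.06, SE 0.17, adjusted p = 2.52e-04) higher and Slc17a7 lower (−0.80, SE 0.14, adjusted p = 9.19e-04) in Top1 cKO-Topot, while 1 of 4 interneuron markers was higher (median 0.65) and no astrocyte marker was called (median 0.31). The part of these cells in the differences of the members was not tested.

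Inhibition and deletion, WT-Topot against Top1 cKO-Veh, separated 2 members, both lower in WT-Topot, where 1.23% of all genes were called lower and 0.293% higher. Fos differed by −2.57 (SE 0.34, adjusted p = 2.34e-04) and Junb by −1.26 (SE 0.24, adjusted p = 0.00495). For these 2 the libraries did not overlap, where 12.3% of genes of at least 1 CPM were fully lower and 12.2% fully higher. Junb missed the threshold without WT-Topot replicate 2 (adjusted p = 0.0134), WT-Topot replicate 3 (0.0184) or Top1 cKO-Veh replicate 2 (0.0415). With the block, which called 4.8% of genes lower and 2.93% higher, 5 members were lower, the other 3 being Fosb (−2.82, adjusted p = 0.0217 without and 4.44e-06 with it), Fosl2 (−0.64, 0.245 and 9.93e-04) and Jund (−0.69, 0.101 and 5.88e-06). At replicate numbers 1, 2 and 3 the log2 ratio of Fosb was −4.53, −2.07 and 0.62, so number 3 went the other way. The SD of these ratios was 2.58, whereas the blocked SE was 0.40. For the calls without the block, leaving out WT-Topot replicate 2, WT-Topot replicate 3 or Top1 cKO-Veh replicate 2 gave a count of 1. Leaving out Top1 cKO-Veh replicate 3 gave a count of 5. Jun did not differ detectably (0.16, 95% interval −0.22 to 0.53). Lower in WT-Topot here were also 2 of 6 neuron markers, Rbfox3 (−1.01, SE 0.17, adjusted p = 0.00174) and Snap25 (−0.97, SE 0.18, adjusted p = 0.00502). The median of the 6 was −0.16. Slc17a7 (0.57, adjusted p = 0.0299 without and 3.35e-07 with the block) and Tubb3 (0.16) had positive values. Called lower, too, were 2 of 6 astrocyte markers (median −1.55) and 1 of 4 interneuron markers (median −0.79). The part of all these markers' cells was not tested.

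Deletion and drug together, Top1 cKO-Topot against WT-Veh, gave no call by edgeR without the block. There 1.21% of all genes were called lower and 0.473% higher. DESeq2 called 1 member higher, and 3 members had an unadjusted p under 0.05 by edgeR. Jun had the largest positive value at 0.93 (SE 0.21, adjusted p = 0.0143), and all 3 Top1 cKO-Topot libraries lay above all WT-Veh libraries, as they did for Jund, where 12.1% of genes of at least 1 CPM were fully higher and 14.5% fully lower. With the block, which called 3.34% of genes higher and 4.02% lower, Jun (adjusted p = 1.61e-05) and Jund (0.47, adjusted p = 0.00774) were higher and Fosb (−0.99, adjusted p = 0.00816) lower. Fos differed by −0.23 (95% interval −0.81 to 0.35) and Junb by 0.27 (−0.13 to 0.67).

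The makeup of the AP-1 transcript pool followed from these values. Summed over the 7 members, the level was 227 ± 49.7 CPM per kb of exon with vehicle and 134 ± 29.1 with topotecan in WT neurons, and 227 ± 44.4 and 265 ± 33.4 in Top1 cKO neurons (SD, n = 3). The Fos family made up 41.5 ± 4.32% of it in WT-Veh (38.04 to 46.4%) and 21.5 ± 1.76% in WT-Topot (19.6 to 23.0%), with the means of the Top1 cKO groups in between, at 30.4 ± 8.49% with vehicle (20.9 to 37.4%) and 28.8 ± 4.31% with topotecan (26.3 to 33.8%). The Top1 cKO libraries with vehicle thus overlapped those of WT-Topot. Jun alone went from 10.9% (9.25 to 12.1%) in WT-Veh to 28.6 ± 1.89% in WT-Topot, whereas the Top1 cKO groups had 15.9 ± 6.44% with vehicle and 17.8 ± 2.13% with topotecan. The level of Fos divided by that of Jun was 0.860 to 2.34 in WT-Veh and 0.102 to 0.158 in WT-Topot, against 0.377 to 1.35 and 0.585 to 0.823 in the Top1 cKO groups with vehicle and topotecan. WT-Topot was thus the group in which no library reached a Fos level above 0.158 times its Jun level. These shares concern mRNA, and protein was not measured in this series.

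**Figure D4:**
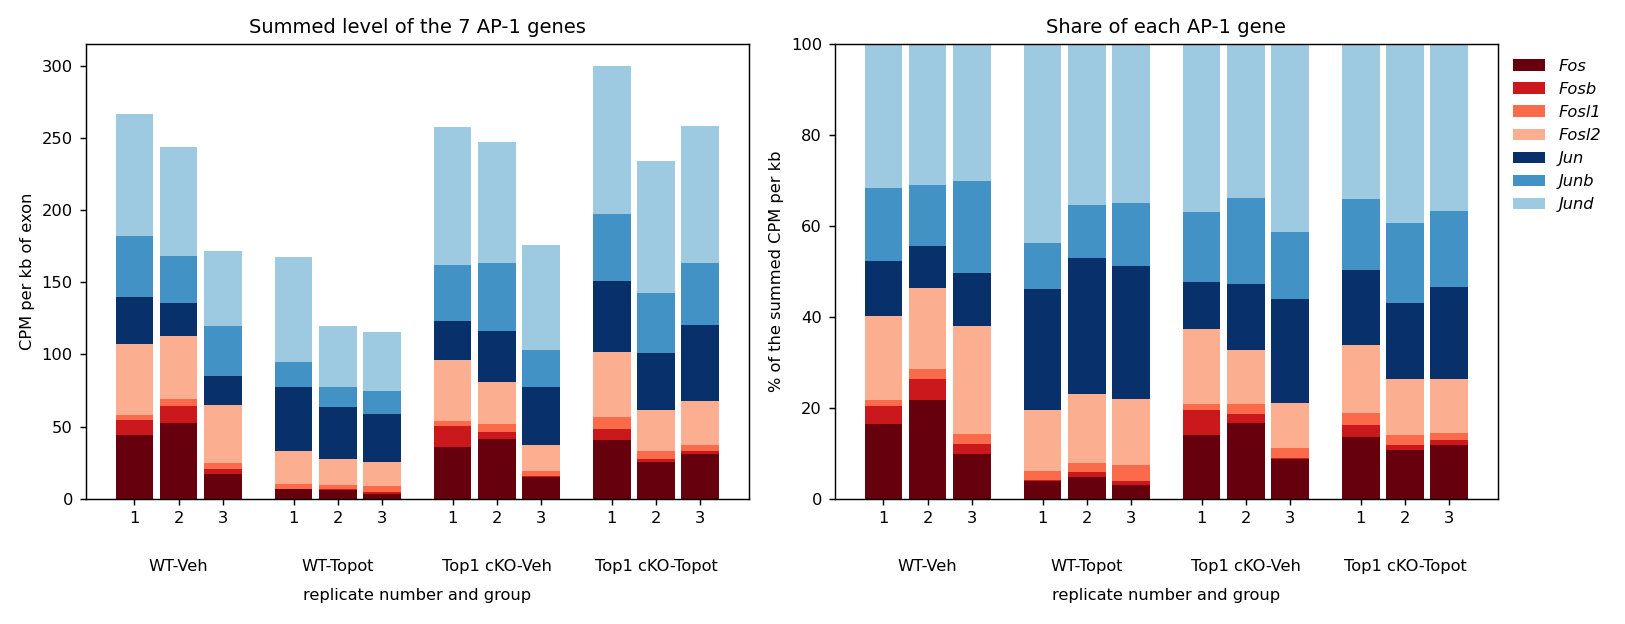
Summed level of the 7 AP-1 genes in CPM per kb of exon (left) and the share of each gene in % of that sum (right) in the 12 libraries, with Fos family genes in red and Jun family genes in blue. The WT-Topot libraries have the lowest mean sum (134 CPM per kb) and the largest share of Jun (26.4 to 30.02%).

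The members also varied together within groups. Over 13720 genes, deviations from group means also correlated between libraries of the same number (0.261 to 0.485). Whether the members did so more than other genes was not tested. Libraries with replicate number 3 were below their group's mean in all 4 groups for Fos, Fosl2 and Jund, and in 3 of 4 for Fosb and Junb. On the log2 scale their deviation averaged −0.60 for Fos, −0.89 for Fosb and −0.28 for Fosl2, but −0.01 for Jun. Leaving number 3 out of every group, an alternative chosen after seeing the data, kept the 4 calls in WT-Topot against WT-Veh. Over the 12 deviations from the group means, which share libraries and hence depth, the Pearson correlation was 0.864 between Fosb and Fosl2, 0.762 between Fos and Fosb and 0.718 between Fos and Jund, whereas Jun had correlations of −0.26 to 0.46 with the others.

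The genes whose log2(CPM + 1) followed a member most closely over the 12 libraries were sought among 9501 genes of at least 10 CPM, and are given as descriptions. Fos was followed by Vgf, a secreted neuropeptide precursor (Pearson r = 0.972), which averaged 1336 CPM in WT-Veh and 175 CPM in WT-Topot, then by Iqsec1 (0.964) and Etv5 (0.962). Junb was followed by Nr4a1 (0.953), an immediate early nuclear receptor at 89.9 CPM in WT-Veh and 8.97 CPM in WT-Topot, then by the clock gene Cry2 (0.950) and by Egr4 (0.945). For Fosl2 they were Vegfa (0.921), Per1 (0.917) and Phospho1 (0.915), and for Fosb Cpe (0.922), Thsd4 (0.913) and Vegfa (0.911). Jun had its own neighbours with lower values, Eef1d (0.901), Csk (0.892) and Poldip3 (0.886). The nearest to Jund were Aldoart1 (0.946) and Aldoart2 (0.918), retrogene copies of Aldoa whose reads may be shared with it, and Ankrd33b (0.917).

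The pathway around AP-1 was read from 6 lists with 92 genes. The largest counts were those of the 13 other immediate early transcription factors, which are induced by the same kinds of signal. In WT-Topot against WT-Veh 6 of 13 fell and none rose, with a median of −1.35, and the 4 with the smallest p were Nr4a1 (−3.37, SE 0.33), Egr4 (−1.93, SE 0.26), the activity-dependent factor Npas4 (−3.58, SE 0.49) and Egr1 (−1.70, SE 0.28), with adjusted p-values of 1.87e-06 to 6.35e-04. None was called in Top1 cKO-Veh against WT-Veh (median −0.03) or with topotecan in Top1 cKO neurons (median 0.54), by edgeR without the block. With the block these were 1 lower and 3 higher, and 0 lower and 6 higher. In the interaction 5 of 13 passed as positive, led by Nr4a1 (4.17, SE 0.45, adjusted p = 9.83e-05), Egr4 (2.58, SE 0.32), Npas4 (4.11, SE 0.67) and Egr1 (2.16, SE 0.39). In Top1 cKO-Topot against WT-Topot 9 of 13 were higher, and in WT-Topot against Top1 cKO-Veh 7 of 13 were lower. These counts stand beside the shares of all genes given above for each comparison.

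Upstream of the promoters, none of 17 transcription factors and coactivators, among them Creb1, Srf and their cofactors, was called in WT-Topot against WT-Veh, with a median of −0.06. Mef2c, a calcium-responsive factor, was the 1 of them called in any comparison without the block, at −0.99 (SE 0.16, adjusted p = 5.93e-04) in Top1 cKO-Topot against WT-Veh. Each treatment alone also gave Mef2c negative values against WT-Veh that passed only with the block. These were −0.61 in WT-Topot (adjusted p = 0.0479 without and 3.29e-07 with the block) and −0.80 in Top1 cKO-Veh (0.0423 and 3.15e-14). Of 20 genes of the ERK, JNK and p38 kinase pathway, 1 fell in WT-Topot. This was Mapk10, the neuronal JNK3 that phosphorylates Jun (−1.29, SE 0.20, adjusted p = 3.96e-04). It stood at 249, 292 and 275 CPM in WT-Veh and 78.8, 139 and 116 CPM in WT-Topot. Its level in WT-Topot was below that of Top1 cKO-Veh, too (−1.03, adjusted p = 0.00588). Genes over 100 kb were called lower more often than shorter ones, both of at least 1 CPM. The shares were 18.04% and 1.10% in WT-Topot against WT-Veh, and 11.31% and 0.608% in WT-Topot against Top1 cKO-Veh. In Top1 cKO-Topot against WT-Veh they were 8.74% and 0.878%. The part of gene length in the calls of Mapk10 and Mef2c was not tested. Mapk3 (ERK1), a kinase upstream of Fos, stood at 98.0, 63.1 and 113 CPM in WT-Veh and 205, 179 and 138 CPM in WT-Topot, with no overlap (0.94, SE 0.22, adjusted p = 0.0128 without and 4.72e-08 with the block). It was lower in Top1 cKO-Topot than in WT-Topot (−1.87, SE 0.22, adjusted p = 9.26e-06) and WT-Topot exceeded Top1 cKO-Veh (1.51, SE 0.19, adjusted p = 1.42e-04).

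Among partners and products, calls were few. Of 12 bZIP relatives such as Atf2 and Atf3, none was called in WT-Topot against WT-Veh (median −0.25). None of 12 genes for the decay of Fos and Jun mRNA or protein, such as Zfp36 and Fbxw7, was called in any comparison without the block, with a median of −0.36 in WT-Topot against WT-Veh. Of 18 genes with known AP-1 control, 2 fell in WT-Topot against WT-Veh, namely Penk, the enkephalin precursor (−1.31, SE 0.23, adjusted p = 9.05e-04), and Vegfa, a vascular growth factor (−0.98, SE 0.22, adjusted p = 0.00823), and none was called in another comparison without the block. The median of this list was −0.49 there. With the block, the numbers lower and higher in WT-Topot against WT-Veh were 8 and 0 of the immediate early factors, 1 and 1 of the upstream factors, 2 and 2 of the kinase genes, 0 and 1 of the bZIP relatives, 3 and 0 of the decay genes and 5 and 1 of the genes with known AP-1 control. In the other comparisons the block called at most 1 gene lower and 4 higher of the upstream factors, and at most 4 lower and 2 higher of the genes with known AP-1 control. Of the kinase genes it called at most 6 lower and 4 higher, and of the immediate early factors at most 9 and 11. The largest numbers were 1 and 1 for the bZIP relatives and 1 and 2 for the decay genes.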

How the data were processed

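RNA was polyA-selected (TruSeq RNA kit) and sequenced as 50 bp paired-end reads. The authors cleaned the reads (TagDust), mapped what was left to mm9 (TopHat) and discarded rRNA alignments. The values they deposited are raw counts per gene symbol over RefSeq exons, not normalized. The counting program, its use of strand and the software versions are not given in the sources used here.

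From these counts, CPM were computed on TMM-scaled library sizes and tests were run with edgeR 4.0.16 (glmQLFit and glmQLFTest, R 4.3.3), without a filter, on the 6 libraries of each pairwise comparison and on all 12 for the interaction. P-values were Benjamini-Hochberg adjusted over 23893 genes, of which 5182 had no count, with an FDR of 0.01. The scripts were tested on simulated data. Alternatives were DESeq2 1.42.0 size factors and Wald test, filterByExpr, 1 fit on all libraries, a replicate block, each replicate left out in turn and, added after seeing the data, replicate number 3 left out.

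Replicate numbers 1 to 3 come from the labels, which do not say what a number marks. Over 13720 genes, deviations from group means correlated at 0.261 to 0.485 for all 18 pairs of libraries of the same number. For different numbers they correlated at −0.384 to −0.0494. Deviations within a group cancel out, so positive values for the same number by themselves make the others negative on average. The numbers were treated as a pairing only in the block, and the main calls came from fits without it. Blocked p-values do not measure the spread of a member's 3 ratios alone. A blocked SE could lie far below that spread, as for Fosb in WT-Topot against Top1 cKO-Veh. The blocked value is printed where it changes the call of a member. For the gene lists, blocked counts are printed for WT-Topot against WT-Veh, and mostly as largest numbers for the other comparisons. Counts of any pair of replicates differed by more than sampling noise (dispersion index 6.44 to 10.9, where noise alone gives 1).

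The members and gene lists were chosen with earlier results of these data known. All 7 members were tested in each comparison, but some values of members without a call are not printed. Top1 served as the check of the labels. From each pathway list, genes past the FDR threshold were eligible to be named, at most 4 per comparison by smallest p, and from the likeness ranking the 3 highest per member of at least 10 CPM. Genes named by likeness carry no test. The result of 1 gene of the pathway lists is not reported here. Genes with adjusted p at or above 0.01, such as Mapk3 in WT neurons, were named beside a call of the same gene. Of 43 marker genes in 8 lists, neurons, interneurons, astrocytes and microglia are given in the report. Oligodendrocyte-lineage (96.2 to 294 CPM), endothelial and mural (9.45 to 43.4), fibroblast (13.6 to 161) and dividing-cell (0 to 4.78) sums are given here as ranges over libraries. Gene positions are from GENCODE vM1.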

Additional observations from a re-analysis of the deposited data

Results flagged for a closer look

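The response of Fos to topotecan differed between WT and Top1 cKO neurons by a test of the difference itself, with an interaction of 2.91 on the log2 scale (edgeR adjusted p = 0.00588, SE 0.52). The gap between genotypes was positive at 3 of 3 replicate numbers. The value was 2.60 to 3.25 over the alternatives tried, and 13 of 17 of them kept the call. No group had more than 3 libraries, so no library was tested for lying far from its group.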

How the results depend on the processing

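Of 12 calls of a member in a comparison, tested under 149 values of the alternatives, 129 calls held, 20 were lost and 0 reversed. The 4 calls in WT-Topot against WT-Veh held under each alternative (adjusted p at most 0.00925). The cause of the lost calls was not tested.

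With the replicate block, the numbers of members called became 5 lower and 1 higher in WT-Topot against WT-Veh, 1 lower in Top1 cKO-Veh against WT-Veh, 1 higher with topotecan in Top1 cKO neurons, 5 lower in WT-Topot against Top1 cKO-Veh, 1 lower and 2 higher in Top1 cKO-Topot against WT-Veh and 5 higher in the interaction. The block changed no other member's call. With filterByExpr the counts were 2 higher in Top1 cKO-Topot against WT-Topot, 1 lower in WT-Topot against Top1 cKO-Veh and 0 in the interaction. With 1 fit on all 12 libraries there were 2 higher in Top1 cKO-Topot against WT-Topot. With DESeq2 there were 1 higher in Top1 cKO-Topot against WT-Veh and 3 in the interaction. With number 3 left out there were 4 lower in WT-Topot against Top1 cKO-Veh and 3 higher in the interaction. Leaving out 1 library at a time gave 3 to 5 higher in Top1 cKO-Topot against WT-Topot, 1 to 5 lower in WT-Topot against Top1 cKO-Veh, 0 to 1 lower and 0 to 1 higher in Top1 cKO-Topot against WT-Veh and 0 to 2 higher in the interaction.

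Of 623 values of the members under alternatives, 18 reversed in sign, none of a called result. With number 3 left out, Fosl1 was 0.033 in Top1 cKO-Veh against WT-Veh and Fos −0.22 with topotecan in Top1 cKO neurons. Leaving out 1 library gave −0.63 to 0.012 for Fos, −1.42 to 0.19 for Fosb, −0.34 to 0.17 for Fosl1 and −0.17 to 0.22 for Junb in Top1 cKO-Veh against WT-Veh. With topotecan in Top1 cKO neurons it gave −0.25 to 0.32 for Fos, −1.46 to 0.42 for Fosb and −0.035 to 0.58 for Fosl2, and in Top1 cKO-Topot against WT-Veh −0.57 to 0.077 for Fos.

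Over all genes, the block raised the numbers called lower and higher from 488 and 163 to 1195 and 775 in WT-Topot against WT-Veh, from 30 and 11 to 706 and 622 in Top1 cKO-Veh against WT-Veh, from 2 and 0 to 415 and 205 with topotecan in Top1 cKO neurons, from 246 and 350 to 976 and 1100 in Top1 cKO-Topot against WT-Topot, from 295 and 70 to 1147 and 699 in WT-Topot against Top1 cKO-Veh, from 289 and 113 to 961 and 799 in Top1 cKO-Topot against WT-Veh, and from 9 and 95 to 365 and 583 in the interaction. DESeq2 gave 160 and 63 in Top1 cKO-Veh against WT-Veh, 44 and 9 with topotecan in Top1 cKO neurons, 466 and 163 in WT-Topot against Top1 cKO-Veh and 82 and 275 in the interaction, and 205 higher in Top1 cKO-Topot against WT-Veh. filterByExpr gave 98 higher in WT-Topot against WT-Veh, 3 and 0 in Top1 cKO-Veh against WT-Veh, 0 with topotecan in Top1 cKO neurons, 134 lower in Top1 cKO-Topot against WT-Topot, 40 higher in WT-Topot against Top1 cKO-Veh, 44 higher in Top1 cKO-Topot against WT-Veh and 58 higher in the interaction. The single fit gave 54 and 18 in Top1 cKO-Veh against WT-Veh, 7 lower with topotecan in Top1 cKO neurons and 146 lower in Top1 cKO-Topot against WT-Topot. With number 3 left out there were 140 and 76, 157 and 39, 534 and 185, 529 and 336, and 48 and 159, in Top1 cKO-Veh against WT-Veh, with topotecan in Top1 cKO neurons, in WT-Topot against Top1 cKO-Veh, in Top1 cKO-Topot against WT-Veh and in the interaction. Each library held 1730164 to 4583777 counts, and the lowest counts were 5 for Fosb and 12 for Fosl1.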
